A study of Mus musculus with 8 samples.

Results

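The 10 genes *Isl1*, *Tbx1*, *Mef2c*, *Foxc1*, *Foxc2*, *Nkx2-5*, *Gata4*, *Gata5*, *Gata6* and *Hand2* encode transcription factors of the mouse heart field and were picked by name from the 48526 genes of the count table. All 10 were above the filter on low counts, which kept 9744 genes. The libraries came from wild-type C57bl6/J male embryos at stage E8.5f, named L29-3, L43-5, L46-8 and L49-3. The field of each embryo was cut out between the headfolds and the second somite without the heart and the back, and was divided along the midline. Each embryo gave 1 left and 1 right library of polyA RNA, so that the 8 libraries are 4 pairs from single, unpooled animals. No mutant or treatment entered the comparison, which asked how gene expression differs between the left and the right field.

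The heart field is a sheet of mesoderm that lies behind the early heart tube and adds cells to both of its poles. ISL1, TBX1 and the forkhead factors FOXC1 and FOXC2 act in progenitors that are still dividing, whereas NKX2-5, the GATA factors, HAND2 and MEF2C also act in cells that begin to build heart muscle and switch on sarcomere genes. NKX2-5 and GATA4 bind each other on shared targets, and the GATA factors overlap in function.

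All 10 factors were detected on both sides of every embryo, and with all 4 embryos none passed the tests of a difference between left and right. Single embryos nevertheless had large ratios, in opposite directions in different animals. Beyond counting error, 9 of the 10 factors were lower on the left in L43-5, and in L46-8 6 were higher and 1 was lower. Over all genes tested and all 4 embryos, 15.5% of the ratios were beyond counting error. This share was not computed for each embryo alone. The widest spread between embryos was that of *Gata4*, which in both libraries of L49-3 lay below every library of the other 3 embryos.

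The total count was between 1147446 and 3520753 per library, with the 2 smallest totals in L49-3. A count of 0 in a library allows up to 3 counts, and this limit was between 0.844 and 2.64 CPM (counts scaled to the same TMM-adjusted library total). Limits and intervals of counts cover counting error only. L49-3 stood apart from the other embryos: the median distance of its libraries to those of other embryos, in log2 CPM, was 0.531 (left) and 0.481 (right), against 0.352 to 0.419 for the remaining 6 libraries. The 5 markers of the second heart field (*Isl1*, *Six2*, *Fgf8*, *Fgf10*, *Tbx1*) were all above the background of the study, a mean normalized count of 5.6, and summed to between 156 and 326 CPM. Cardiomyocyte genes were also present, the sum of 11 markers being 3620 CPM on the left of L29-3 and 449 CPM on the left of L49-3, with 1465 CPM on the right of L49-3. In a bulk sample, fewer cells of a type and less RNA per cell cannot be told apart.

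RefSeq gave a promoter for 7 of the 10 genes (build GRCm38.p6), and those of *Gata5* and *Hand2* are printed because the former was lower in L49-3 than in the other embryos whereas the latter was almost level across the 4 animals. Each is the 250 bases before the start site, 5′ to 3′ on the strand of the gene, at chr2:180334680-180334929 on the minus strand for *Gata5* and at chr8:57320733-57320982 on the plus strand for *Hand2*. Capitals mark matches to any of 4 motifs on either strand, which were AGATAA for GATA factors, AAGTG for NKX2-5, GGTGTG for T-box factors and TGTTTA for forkhead factors.
Gata5: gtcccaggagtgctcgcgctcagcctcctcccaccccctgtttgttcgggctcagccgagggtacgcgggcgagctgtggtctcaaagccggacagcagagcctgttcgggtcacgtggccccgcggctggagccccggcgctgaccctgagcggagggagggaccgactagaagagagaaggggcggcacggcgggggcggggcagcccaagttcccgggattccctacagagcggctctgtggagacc
Hand2: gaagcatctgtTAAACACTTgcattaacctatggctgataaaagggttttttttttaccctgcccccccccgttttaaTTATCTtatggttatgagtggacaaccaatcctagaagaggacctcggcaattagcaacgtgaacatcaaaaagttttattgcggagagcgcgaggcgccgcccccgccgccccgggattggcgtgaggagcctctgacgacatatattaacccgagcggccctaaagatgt
The *Hand2* window held a forkhead match at position -239 and an NKX2-5 match at -235, which overlap and are printed as 1 run of capitals, and a GATA match at -172, counted back from the start site. The *Gata5* window held none of these letters. Of 32851 promoter windows of this length, 9.99% held the GATA motif, 40.7% the NKX2-5 motif, 16.3% the T-box motif and 12% the forkhead motif, so that such matches are common. In the 10 windows of the 7 factors, the GATA, T-box and forkhead motifs were each found in 1 window and the NKX2-5 motif in 4.

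Per length of exon, *Nkx2-5*, the homeobox gene of the earliest heart precursors, had the highest level, at 37.8 ± 13.9 CPM per kb (SD over 8 libraries of 4 embryos). *Foxc2* followed at 33.2 ± 7.19 CPM per kb, *Hand2* at 30.02 ± 7.17, *Gata4* at 28.1 ± 15.2 and *Gata5* at 24.0 ± 10.6. *Tbx1* was at 21.3 ± 5.54 CPM per kb, *Gata6* at 17.4 ± 6.24, *Isl1* at 16.4 ± 3.32, *Foxc1* at 11.8 ± 3.03 and *Mef2c* at 8.42 ± 1.997. The ranges of all neighbours in this order overlapped, and *Isl1* over *Foxc1* was the one step that held in 8 of 8 libraries. Compared with the 9250 coding genes tested, the levels per length of the 10 factors were spread from the percentile 42.6 for *Mef2c* to 87.0 for *Nkx2-5*. The level of *Mef2c* depended on the length used, since its 31 annotated transcripts join to 15715 exon bases and the longest of them has 6277. With the longest transcript, *Mef2c* reached 21.1 CPM per kb, *Gata6* 29.99, *Tbx1* 29.8 and *Isl1* 25.7, and 3 of the 10 places in the order were unchanged.

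**Figure D1:**
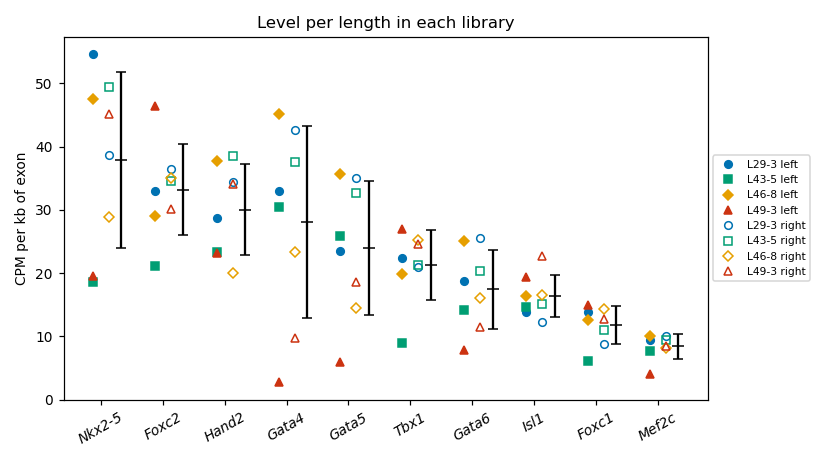
Level per length (CPM per kb of exon) of each factor on the vertical axis, with filled markers for left and open markers for right libraries, 1 shape and colour for each embryo, and bars for the mean ± SD of 8 libraries. *Gata4* spans the range from 2.72 to 45.1 CPM per kb, with both L49-3 libraries at its lower end.

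*Isl1* (ENSMUSG00000042258, GRCm38 chr13:116298281-116309689, minus strand), a LIM-homeobox gene that marks the progenitors of the second heart field, was the most even factor across the midline. Its normalized count (the count divided by the DESeq2 size factor) was 104, 110.2, 123 and 146 in the left libraries of L29-3, L43-5, L46-8 and L49-3, and 91.6, 114, 123 and 169.5 in the right ones of the same embryos. The left and right values thus ran together, and the high values of both sides were those of L49-3. The fitted log2 fold change of left over right was -0.03 (SE 0.112), with a 95% interval from -0.27 to 0.22, which leaves room for a fold between 0.83 and 1.16. None of its 4 embryos had a ratio beyond counting error, unlike the other 9 factors, each of which had at least 1.

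*Tbx1* (ENSMUSG00000009097, chr16:18580979-18590671, minus strand) encodes a T-box factor that keeps pharyngeal and second heart field progenitors dividing. Its normalized count was 148, 59.3, 133 and 179.6 in the left libraries, and 139.9, 142, 168 and 163 in the right ones, in the same order of embryos. The right values were close together, and the left library of L43-5 was far below all others. The log2 fold change was -0.36 (SE 0.190, 95% interval -0.77 to 0.05), the farthest from 0 of the 10 fitted values. Its adjusted p was 0.987 (edgeR's quasi-likelihood test, Benjamini-Hochberg method over all 9744 genes). The plain mean of the log2 ratios of the 4 embryos was -0.34, and it was farther from 0 for *Gata4* (-0.38) and *Nkx2-5* (-0.35). The fitted value of *Tbx1* rested on 1 embryo: without L43-5 it was -0.05.

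*Foxc1* (ENSMUSG00000050295, chr13:31806633-31812476, plus strand) and *Foxc2* (ENSMUSG00000046714, chr8:121116171-121118895, plus strand) encode related forkhead factors of the second heart field and of paraxial mesoderm. The *Foxc1* normalized count was 152, 67.8, 139 and 166 in the left libraries, and 96.6, 122, 157 and 141 in the right ones. For *Foxc2* it was 169, 109.5, 151 and 240.0 in the left libraries, and 188, 179, 180.2 and 155 in the right ones. Both had their lowest value on the left of L43-5, where *Tbx1* was lowest too, and the left values enclosed those of the right in *Foxc2*. Their log2 fold changes were -0.07 (SE 0.191) for *Foxc1* and -0.17 (SE 0.163) for *Foxc2*. Without L43-5 both were above 0, at 0.22 and 0.05. The sum of 8 paraxial mesoderm markers was also lowest on the left of L43-5, at 222 CPM against 267 to 352 CPM elsewhere. This list contains *Foxc2* and is not separate from it. By normalized count, *Tcf15*, *Pax1* and *Pax9* were lowest there too, whereas *Tbx18* was highest there. *Meox1* was not lowest there, nor were *Uncx* and *Meox2*, which were under the background of the study. *Foxc2* itself was at 57.7 CPM there and at 99.2 CPM on the right of L29-3, which had the next lowest sum. The part of paraxial mesoderm in these values was not tested. Of the level per length of the 2 genes together, *Foxc2* took between 69.9% and 80.7% in all 8 libraries, including those of L49-3.

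*Mef2c* (ENSMUSG00000005583, chr13:83504034-83667080, plus strand) encodes a MADS-box factor that turns on muscle genes and is a target of ISL1 and GATA factors. Its normalized count was 281, 229, 301 and 119 in the left libraries, and 299.6, 283, 241 and 249 in the right ones. The left library of L49-3 was low while its right library was within the range of the other embryos. The log2 fold change was -0.22 (SE 0.152, 95% interval -0.55 to 0.11) with L49-3 and -0.04 without it.

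*Nkx2-5* (ENSMUSG00000015579, chr17:26838664-26845009, minus strand) changed direction between embryos, with 2 of 4 higher on the left, as for *Tbx1* and *Foxc1*. Its normalized count was 178, 60.6, 155 and 63.5 in the left libraries, and 126, 161, 93.9 and 146 in the right ones. The left libraries formed a high pair, L29-3 and L46-8, and a low pair, L43-5 and L49-3, and all 4 right libraries, from 93.9 to 161, lay above the low pair. Log2 ratios within embryos were accordingly 0.50, -1.41, 0.72 and -1.21, each beyond counting error, and the fitted log2 fold change was -0.30 with the largest standard error of the 10 factors, 0.299. Its 95% interval reached from -0.95 to 0.35.

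*Hand2* (ENSMUSG00000038193, chr8:57320983-57324633, plus strand) encodes a basic helix-loop-helix factor needed for the growth of the right ventricle and outflow tract. Its normalized count was 127, 104, 168 and 104 in the left libraries, and 154, 172, 88.8 and 151 in the right ones. L46-8 had the highest left and the lowest right value, and the other 3 embryos were lower on the left. The log2 fold change was -0.18 (SE 0.209), and -0.52 without L46-8.

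*Gata4* (ENSMUSG00000021944, chr14:63198922-63271692, minus strand), *Gata5* (ENSMUSG00000015627, chr2:180325133-180334699, minus strand) and *Gata6* (ENSMUSG00000005836, chr18:11052064-11085635, plus strand) encode the zinc finger factors of heart and endoderm. The *Gata4* normalized count was 243, 226, 335 and 20.1 in the left libraries, and 316, 279, 173 and 71.5 in the right ones. For *Gata5* it was 145, 160.4, 222 and 37.2 in the left libraries, and 218, 203, 90.1 and 115 in the right ones. For *Gata6* it was 231, 175, 309 and 97.5 in the left libraries, and 316, 251, 198 and 141 in the right ones. All 3 genes were higher on the left in L46-8 and lower on the left in the other 3 embryos, and all 3 had their lowest value on the left of L49-3. The fitted log2 fold changes were -0.09 (SE 0.230) for *Gata4*, -0.17 (SE 0.283) for *Gata5* and -0.20 (SE 0.166) for *Gata6*. Intervals of 95% reached from -0.59 to 0.42, from -0.79 to 0.45 and from -0.56 to 0.17, and therefore do not show equality of the sides.

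**Figure D2:**
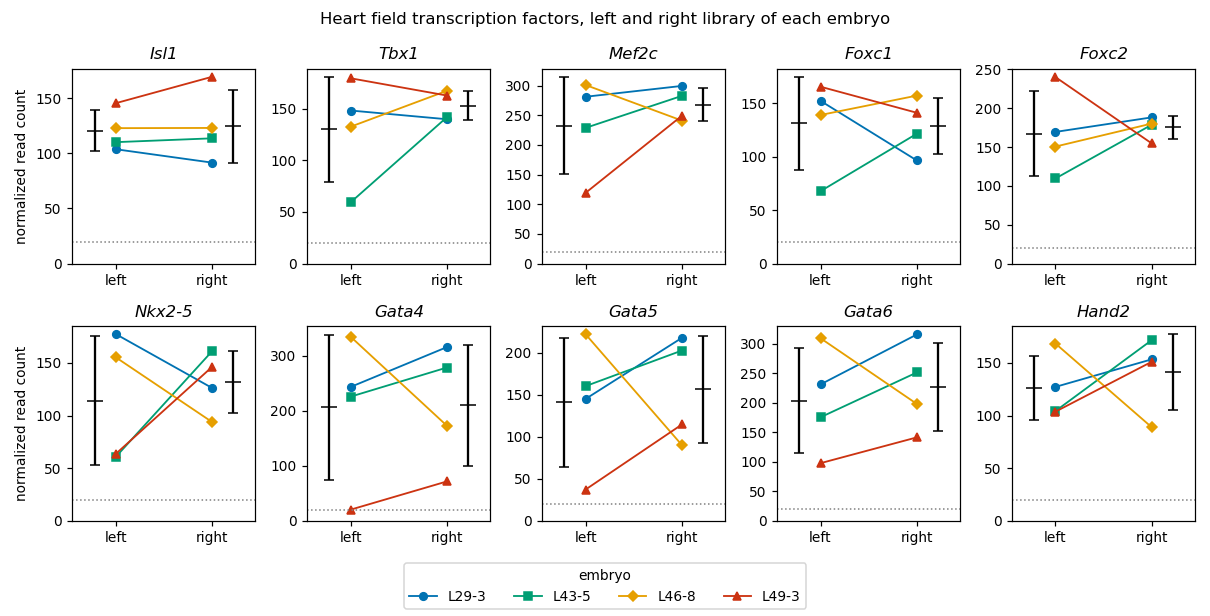
Normalized read count (vertical axis) of each factor in the left and right library of 4 embryos, joined by a line for each embryo; bars beside the points give the mean ± SD of 4 libraries and the dotted line marks the signal threshold of 20. Lines of different embryos cross in every panel except that of *Isl1*, and the *Gata4* points of L49-3 lie at 20.1 and 71.5.

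Across the 10 factors, 0 passed an adjusted p of 0.05 for left against right in edgeR's quasi-likelihood test, where 0.0103% of all genes did, and the adjusted p was between 0.987 and 0.996. DESeq2 and limma-voom also gave 0. By the threshold of the study, a 1.2-fold difference or more whose unadjusted p did not exceed 0.05, 0 of 10 factors were called, against 3.05% of all genes. An unadjusted p under 0.05 was reached by 0 factors and by 4.36% of all genes. The left and right libraries did not separate for any of the 10, whereas they did for 2.5% of all genes. All 10 fitted values were below 0, with a median of -0.18 against -0.0042 over all genes tested. Of all genes tested, 48.6% had a fitted value above 0. No factor was lower on the left in all 4 embryos, or higher in all 4, and 12.4% of all genes kept 1 direction. The exact sign-flip permutation test over the 4 log2 ratios, two-sided, gave p-values from 0.5 to 1 and cannot go below 0.125 with 4 embryos.

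**Figure D3:**
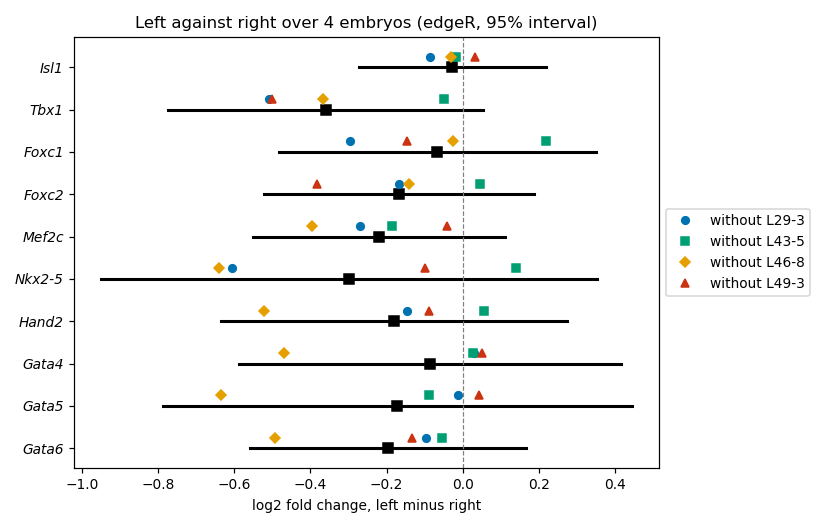
Log2 fold change of left over right for each factor (horizontal axis, below 0 for lower on the left), with squares and bars for the edgeR value and its 95% interval over 4 embryos and coloured markers for the value without 1 embryo. All intervals contain 0, and the values without L46-8 lie farthest to the left for the GATA genes, *Hand2*, *Mef2c* and *Nkx2-5*.

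Ratios within single embryos were often large. Of the 40 ratios of left to right (10 factors in 4 embryos), 28 had an exact 95% counting interval that did not contain 0 on the log2 scale, with 9 left values above and 19 below the right one. The same held for 15.5% of the ratios of all genes tested and for 16.1% of those of the 2100 genes with a mean normalized count within the range of the factors, 123 to 250.4. In L43-5, 9 factors were lower and 0 higher on the left, with a median log2 ratio of -0.61. In L46-8, 6 were higher and 1 was lower, with a median of 0.47. In L49-3, 1 was higher and 6 were lower, with a median of -0.54, and in L29-3, 2 were higher and 3 lower, with a median of -0.11. Such a ratio compares 2 libraries of 1 animal and carries no replicate check. The shares over all genes were not computed for each embryo alone. Counting intervals narrow with depth, and L43-5 had the largest totals, 2864915 (left) and 3520753 (right).

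The 6 factors higher on the left in L46-8 were *Mef2c*, *Nkx2-5*, *Gata4*, *Gata5*, *Gata6* and *Hand2*, and each of these 6 was lower on the left in L49-3. *Gata5* spanned the widest range, with a log2 ratio of 1.29 (counting interval 0.91 to 1.69) in L46-8 and -1.63 (-2.37 to -0.95) in L49-3. *Gata4* had 0.95 (0.66 to 1.24) and -1.84 (-2.86 to -0.92). In L49-3 *Foxc2* had a ratio of 0.63, whereas *Tbx1* and *Foxc1* were within counting error there.

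The summed cardiomyocyte markers had log2 ratios (left to right) of 0.11, -0.51, 0.89 and -1.71 in embryos L29-3, L43-5, L46-8 and L49-3. Of these 11 markers, 10 were above the background of the study. The remaining one, *Nppa*, had a normalized count of 1.55 on the left of L49-3 and 0 in every other library. Summed markers of the juxta-cardiac field had ratios of -0.73, 0.03, 1.06 and -0.11 in the same order. The neural tube list, from a tissue next to the field, had ratios of 0.36, -0.66, -1.46 and -0.43, with sums between 75.8 and 418 CPM. Primitive blood markers were nearly absent, at 0.653 to 22.9 CPM in sum with 6 of 8 under the background and 1 at 0 in every library. The part of these tissues in the ratios of the factors was not tested.

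**Figure D4:**
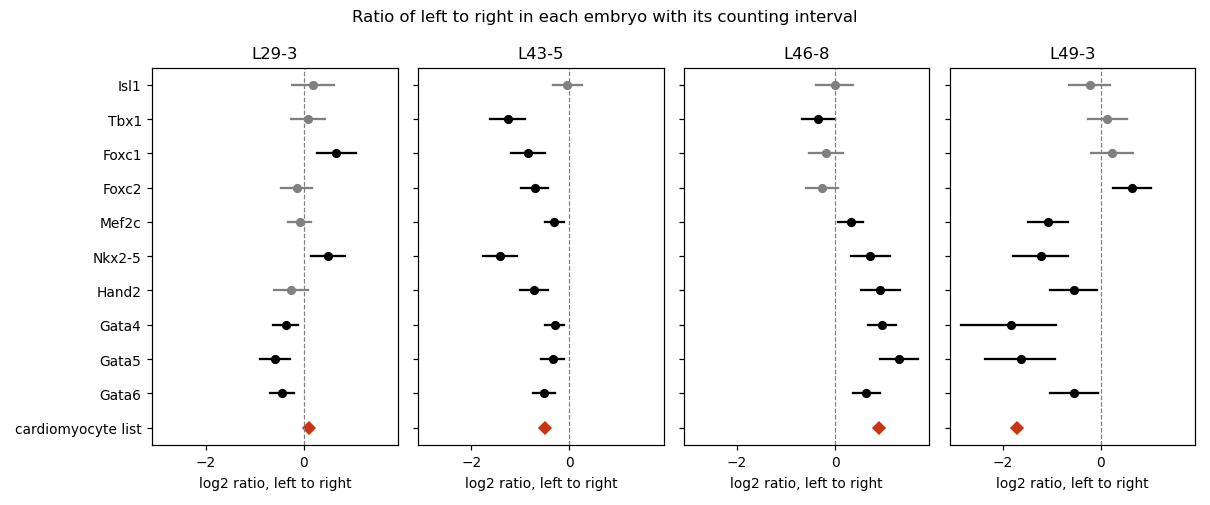
Log2 ratio of left to right (horizontal axis) of each factor in each embryo, with exact 95% counting intervals; black marks ratios whose interval does not contain 0, grey the others, and the red diamond the summed cardiomyocyte markers. The GATA genes lie to the right of 0 in L46-8 and to the left of it in the other 3 embryos.

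Calls by the threshold of the study depended on which animals were included. Without L46-8, 6 of the 10 factors passed the threshold of the study, all lower on the left (*Mef2c*, *Nkx2-5*, *Gata4*, *Gata5*, *Gata6* and *Hand2*), where 3.96% of 9803 genes passed it, and the median log2 fold change of the 10 was -0.43. Without L49-3, 2 passed it (*Tbx1* and *Foxc2*, both lower on the left), where 2.86% of 10166 genes did. Without L29-3, *Tbx1* alone of the 10 passed it, where 3.61% of 9818 genes did. Without L43-5 none passed, against 3.53% of 9309 genes, 5 of 10 values were below 0 and the median of all 10 was 0.0044. None of the 10 had an adjusted p under 0.05 with any embryo left out, the lowest being 0.406 for *Gata6* without L46-8 in edgeR's quasi-likelihood test.

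Embryo means, taken over both sides, were spread as well. Taken from the means of log2 CPM, the ratio of the highest to the lowest embryo was 7.11 for *Gata4*, 2.72 for *Gata5* and 2.29 for *Gata6*. It was 1.86 for *Tbx1*, and lowest for *Hand2*, at 1.14. On the log2 scale, the median range between embryos was 0.75 for the 10 factors and 0.32 for all genes tested. In edgeR's joint test of the embryo terms, 0 of 10 factors had an adjusted p under 0.05, against 0.174% of all genes, and 0 had one with DESeq2 or limma-voom. *Gata4* was nearest, with an adjusted p of 0.0686 and the rank 29 of 9744 genes, followed by *Gata6* with 0.178 and *Isl1* with 0.278. These 3 had an unadjusted p under 0.05 (0.000204, 0.00325 and 0.00974 in the same edgeR test). The share of all genes with an unadjusted p under 0.05 between embryos was not computed. The 4 embryos are not groups of the study, and stage within E8.5f, dissection and litter cannot be told apart.

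By the mean normalized count of its libraries, L49-3 was at an end of the range for all 10 factors. It was the lowest of the 4 embryos for 6 of them and the highest for 4. For *Hand2* the means of L49-3 and L46-8 were nearly level, at 127 and 129, and by the mean of log2 CPM L46-8 was the lowest. The share of all genes with L49-3 at an end was not computed. Against the mean of the other 3 embryos, the log2 difference in L49-3 was -2.71 for *Gata4*, -1.32 for *Gata5*, -1.03 for *Gata6*, -0.65 for *Mef2c* and -0.33 for *Nkx2-5*. It was -0.07 for *Hand2*, 0.27 for *Foxc2*, 0.38 for *Foxc1*, 0.45 for *Tbx1* and 0.51 for *Isl1*, against a median of -0.01 over all genes tested. The *Gata4* values of L49-3, 20.1 and 71.5, lay below the 173 to 335 of the other 6 libraries. Those of *Gata6*, 97.5 and 141, lay below 175 to 316, and the *Isl1* values, 146 and 169.5, lay above 91.6 to 123. The 3 juxta-cardiac markers (*Tbx5*, *Mab21l2*, *Hand1*), which mark the rim of the field, summed to 25.3 and 27.3 CPM in L49-3 and to between 108 and 224 CPM elsewhere. The 8 neural tube markers summed to 311 and 418 CPM in L49-3 and to between 75.8 and 235 CPM elsewhere. The part of these tissues in the differences of L49-3 was not tested. Without L49-3, 0 genes had an adjusted p under 0.05 between embryos and 0 of the 10 factors had an unadjusted p under 0.05 in edgeR's quasi-likelihood test.

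Depth limits the *Gata4* value in L49-3, which rests on 13 left and 43 right reads. The mix of the 3 GATA genes can be read within each library without normalization. *Gata4* supplied between 37.2% and 40.2% of the reads of the 3 genes in the 6 libraries of the other embryos. On the left of L49-3 it supplied 13% (13 of 100 reads, exact Clopper-Pearson 95% interval 7.11% to 21.2%) and on the right 21.8% (43 of 197, 16.3% to 28.3%). *Gata6* supplied 63% and 43.1% of the reads in these libraries, against 31.2% to 42.98% elsewhere, and *Gata5* 24% and 35.0%, against 19.6% to 28.6%. The intervals of *Gata4* in L49-3 lay below those of all other libraries, so that *Gata4* was lower in relation to its 2 paralogues as well as in relation to all genes. Per length of exon, *Gata4* made up 41.3% to 43.8% of the GATA level in the other 6 libraries, left and right alike.

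**Figure D5:**
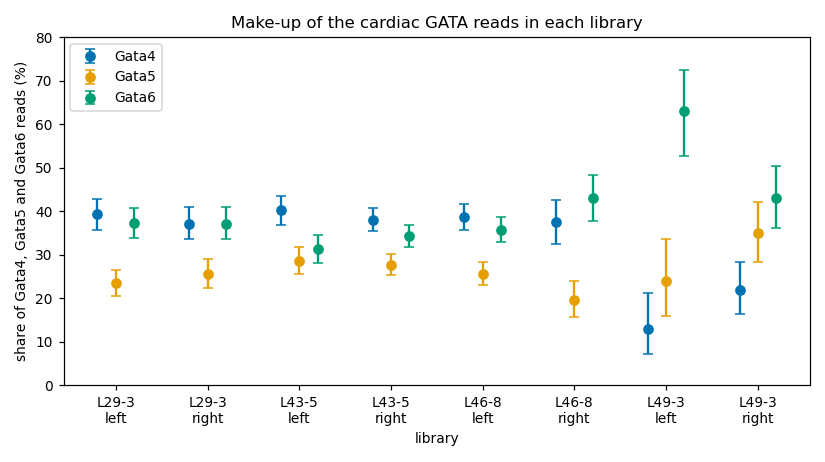
Share of the reads of *Gata4*, *Gata5* and *Gata6* (vertical axis, %) in each of 8 libraries, with exact 95% binomial intervals. *Gata4* is at 13% and 21.8% in L49-3 and between 37.2% and 40.2% in all other libraries.

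The factors were then compared with each other by the root mean square (RMS) difference of their log2 CPM, each centred on its own mean over the 8 libraries, where 0 means the same profile. Of the 45 pairs, *Tbx1* and *Foxc1* were closest at 0.207, followed by *Mef2c* and *Gata6* at 0.258, *Tbx1* and *Foxc2* at 0.266 and *Foxc1* and *Foxc2* at 0.293. The farthest pair was *Tbx1* and *Gata4*, at 1.53. The libraries are paired and share these embryos, so these values describe the 8 libraries alone. Among all genes tested, *Rad50*, *Mrps22* and *Selenoh* were closest to *Isl1*, at 0.0882, 0.104 and 0.114, but without L49-3 they took the ranks 171, 348 and 295. For *Tbx1*, *Zfp428*, *Ppp2r3d* and *Eva1b* were closest at 0.126, 0.128 and 0.141, with the ranks 1026, 47 and 1265 without L43-5. For *Nkx2-5*, *Gm8113*, *BC003965* and *Zfp202* were closest, at 0.278, 0.296 and 0.298, with the ranks 63, 36 and 30 without L49-3.

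Genes around the 10 factors were read from the same fit. Of 18 paralogues, 13 were tested, 4 with a higher and 9 with a lower fitted value on the left, and 1 passed the threshold of the study, *Foxh1*, a forkhead partner of SMAD proteins, at a log2 fold change of -0.27 (SE 0.121). Of 17 cofactors 15 were tested, 9 with a higher and 6 with a lower value, and 0 passed. Of 14 second heart field signals and targets 13 were tested, 9 with a higher and 4 with a lower value, and 1 passed in each direction. The one with a lower value on the left was *Hes1*, a repressor and NOTCH target, which had a log2 fold change of -0.28 (SE 0.116). Adjusted over all genes, p was 0.987 for both *Hes1* and *Foxh1* in edgeR's quasi-likelihood test. Of 14 myocardial targets 10 were tested, all 10 with a lower value on the left, between -0.45 and -0.02, and 0 passed. The medians of the 4 lists were -0.07, 0.0043, 0.18 and -0.16, against -0.0042 over all genes. Of all genes tested, 48.6% had a higher value on the left and 3.05% passed the threshold of the study.

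Between embryos, 2 genes of these lists had an adjusted p under 0.05 in edgeR's quasi-likelihood test, as did 0.174% of all genes tested. *Tbx5*, a T-box partner of NKX2-5 and GATA4, had a log2 difference of -2.63 in L49-3 against the other embryos (adjusted p 0.0201), and *Myh6*, which encodes a cardiac myosin heavy chain, had -3.21 (adjusted p 0.0470). The paralogues with the next smallest p were *Tbx20* at -2.26, *Tbx2* at -2.50 and *Hand1* at -2.14, and the myocardial targets were *Myl7* at -1.42, *Actc1* at -2.22 and *Myl4* at -1.26. Among cofactors these were *Smarcd3* at -1.53, *Zfpm1*, which encodes a partner of GATA factors, at -1.13, *Srf* at -0.42 and *Ep300* at -0.19. Among signals and targets, *Aldh1a2*, the enzyme that makes retinoic acid, was at -1.17 and *Pdgfra* at -0.61, whereas *Fgf10* was at 0.51. All 10 tested myocardial targets were below 0, from -3.21 for *Myh6* to -0.39 for *Myh7* (named here after its value was seen), whereas the other lists held values on both sides of 0. The medians were -0.36 for paralogues, -0.02 for cofactors, 0.34 for second heart field signals and targets and -1.28 for myocardial targets.

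Some reads of 3 factors could not be assigned with certainty, because the strand setting of the counting is not given in the sources used here. The exons of *Hand2* share 461 bases with *Hand2os1* on the opposite strand, those of *Gata5* 258 bases with *Gata5os* and those of *Gata6* 93 bases with 1010001N08Rik. Over all libraries the opposite genes had 143 reads against 1198 for *Hand2*, 48 against 1418 for *Gata5* and 182 against 1964 for *Gata6*. No other near-identical transcript was found for the 10 genes.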

How the data were processed

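RNA of paired left and right heart fields was sequenced as 8 libraries, grouped by the side and embryo in the labels. The authors mapped the read pairs with Hisat2 (genome GRCm38), dropped duplicates and deposited raw counts per gene from featureCounts. These totals after removal of duplicates set the precision, and no depth of unique reads beyond them was used.

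Genes were tested by the P50 filter of the study, which asks for 4 libraries or more at a DESeq2-normalized count of 20 or more. The comparison of sides used edgeR 4.0.16 under R 4.3.3 (TMM normalization, quasi-likelihood test, embryo as a block, Benjamini-Hochberg adjustment), and embryos with the joint test of the embryo terms in the same fit. Standard errors of fold changes were worked out as the absolute log2 fold change over the square root of the F statistic. Intervals of 95% for fold changes used the t distribution with the total degrees of freedom of the test. Log2 ratios of CPM and distances between profiles used a pseudocount of 0.5. Counting intervals are exact Clopper-Pearson intervals of the left share of the reads. Symbols, positions and exon lengths came from GENCODE vM21.

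Libraries with the same embryo name are paired because they come from the same animal. After subtraction of the mean of each side, same-embryo libraries correlated at 0.165, 0.19, -0.02 and 0.437, against -0.389 to 0.255 between embryos. No pair of libraries was as close as sampling noise.

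The 10 factors and the lists were chosen with earlier results of these data known. The rule for naming genes takes all 10 factors, the listed genes past the threshold of the study, up to 4 genes per list with the smallest p between embryos, and the 3 nearest profiles of *Isl1*, *Tbx1* and *Nkx2-5*. Of the listed genes that this rule takes, 2 are not reported here. Alternatives were DESeq2 1.42.0, limma-voom (limma 3.58.1), other size factors, other filters, no block, another length and each embryo left out. The methods were tested on simulated data.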

Additional observations from a re-analysis of the deposited data

How the results depend on the processing

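The count of factors with an adjusted p under 0.05 between sides was 0 under every alternative run, and without the replicate block, that is with the pairs of an embryo ignored, 0 factors passed the threshold of the study, so that it changed no call of a factor. With no filter, 2 factors (*Tbx1* and *Nkx2-5*) passed the threshold of the study (2.88% of 23873 genes did), 10 genes of the related lists did, against 3 as reported, and 6 factors had an adjusted p under 0.05 between embryos, where 2.69% of genes had. The related lists held 1 gene past the threshold with DESeq2 and 5 with limma-voom. With no term for side, 1 factor (*Gata4*) was called between embryos (0.174% of all genes), at an adjusted p of 0.0459. When each embryo was left out, the factors past the threshold of the study numbered 0 to 6, those called between embryos 0 to 3 (of all genes, from 0% without L49-3 to 2.42% without L46-8), and the genes of the related lists 2 to 18. The log2 fold changes of left over right then ran from -0.47 to 0.051 for *Gata4*, -0.30 to 0.22 for *Foxc1*, -0.38 to 0.045 for *Foxc2*, -0.64 to 0.14 for *Nkx2-5*, -0.52 to 0.056 for *Hand2*, -0.086 to 0.034 for *Isl1* and -0.64 to 0.044 for *Gata5*. Of the 10 places in the order of levels, 3 held with the longest transcript and 5 to 10 without 1 embryo. Of the 9 nearest profiles, 9 stayed in the first 3 places with DESeq2 size factors and 0 to 3 without 1 embryo. The adjusted p of *Gata4* between embryos ran from 1.70e-42 with no filter to 0.992 without L49-3, and was 0.0370 without L29-3 and 0.00109 without L46-8. The cause of these shifts was not tested.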
